A study of Mus musculus with 9 samples.

Results

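Cytosolic ribosomal protein genes encode the protein shell of the ribosomes that work outside mitochondria. They were taken here as every row of the expression table whose gene symbol is Rpl or Rps with a number, together with Rpsa, Rplp0, Rplp1 and Rplp2, leaving out ribosomal S6 kinases and rows named as pseudogenes. The rule used names and no measured value, and it found 84 genes of 37980 rows. They comprise 31 small subunit genes, 43 large subunit genes, the 3 genes of the acidic stalk and 7 paralog-type genes whose symbols end in l or l1. RNA sequencing compared male mice of the C57BL/6J strain, for which the labels name no treatment or engineered allele, aged 3 months, 19 months or 24 months, with 3 libraries per age. The material was hair follicle stem cells. The cells were sorted with antibodies from back and belly skin as CD49f high, CD34 positive keratinocytes, which is the surface phenotype of the hair follicle bulge. Values are FPKM as deposited, counts of mapped fragments scaled by transcript length and by library size. Levels of different genes can be compared per unit of length only within the limits of fragment assignment and coding length described below. The labels do not say whether each library is a different animal, and the p-values therefore reflect the scatter of the libraries, which may be technical.

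Every ribosome needs 1 copy of nearly all of these proteins, and the genes are transcribed together at high rates in most cells. Their mRNAs start with a cytosine followed by a run of pyrimidines (C or T in the DNA), the terminal oligopyrimidine or TOP motif, through which mTOR signalling sets how much of them is translated. Surplus ribosomal proteins such as Rpl5 and Rpl11 bind Mdm2, the ubiquitin ligase of p53, when ribosome assembly is disturbed. In mouse skin, mutations of Rps19, Rps20, Rps7, Rpl24, Rpl27a and Rpl38 are known to alter pigmentation or body form.

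The TOP motif known for these genes lies at the transcription start. The windows below run from 10 bases before an annotated start to 20 bases from it on, the latter being the beginning of the first exon and 5′ untranslated region. They were read 5′ to 3′ from RefSeq promoters of assembly GRCm38.p6, a later build than NCBIM37, to which the expression values were mapped. RefSeq promoters were at hand for 63 of the 84 genes, in 75 windows. Capitals mark the longest run of at least 6 pyrimidines. The first set shows small subunit, large subunit, stalk and paralog-type genes in which such a run lies at or beside the start.
Rps6 (chr4:86857348-86857377, minus strand): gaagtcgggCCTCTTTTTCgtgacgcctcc
Rps10 (chr17:27635225-27635254, minus strand): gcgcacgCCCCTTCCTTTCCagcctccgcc
Rps27 (chr3:90213629-90213658, minus strand): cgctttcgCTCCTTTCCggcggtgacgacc
Rps18 (chr17:33955646-33955675, minus strand): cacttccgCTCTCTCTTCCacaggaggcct
Rpl15 (chr14:18270967-18270996, minus strand): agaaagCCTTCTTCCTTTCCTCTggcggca
Rpl27a (chr7:109519185-109519214, plus strand): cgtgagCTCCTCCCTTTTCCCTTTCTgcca
Rpl28 (chr7:4792955-4792984, plus strand): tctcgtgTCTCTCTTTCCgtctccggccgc
Rpl35 (chr2:39005112-39005141, minus strand): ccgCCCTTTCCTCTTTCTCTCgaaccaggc
Rpl38 (chr11:114668570-114668599, plus strand): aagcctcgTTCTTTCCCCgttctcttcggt
Rplp2 (chr7:141447641-141447670, plus strand): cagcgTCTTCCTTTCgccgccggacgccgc
Rpl22l1 (chr3:28805498-28805527, plus strand): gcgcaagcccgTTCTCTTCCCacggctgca
A second set shows 2 of the 3 genes with the largest increases at 24 months, Rpl12 and Rps23, which have only short runs, and 3 genes without a run in this window, among them the paralog-type genes Rpl36al and Rpl7l1.
Rpl12 (chr2:32961702-32961731, plus strand): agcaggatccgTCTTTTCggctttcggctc
Rps23 (chr13:90923112-90923141, plus strand): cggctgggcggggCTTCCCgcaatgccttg
Rpl41 (chr10:128549149-128549178, minus strand): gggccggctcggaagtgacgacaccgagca
Rpl36al (chr12:69184048-69184077, minus strand): ccgtcgctcaggttcagttccgacttccgc
Rpl7l1 (chr17:46782637-46782666, minus strand): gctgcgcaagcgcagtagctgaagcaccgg
A run of at least 8 pyrimidines within 20 bases of the start was found in 31 of the 75 windows (41.3%), and in 16.0% of the 32851 RefSeq promoter windows of the same length. Another 5 words were also searched on both strands of the whole windows, 250 bases before to 50 after the start; no word contains another. TCGCGAGA was in 14.7% of the ribosomal protein windows and in 0.995% of all windows, CCGGAAGT in 16.0% and 3.89%, AAGATGGC in 10.7% and 2.75%, GGGCGG in 60.0% and 35.7%, and TATAAA in 9.33% and 13.6%. These are matches of letters and do not show that a factor binds. Of the tested genes with a promoter, the 30 with a pyrimidine run and the 30 without had median log2 changes at 24 against 3 months of 0.35 and 0.39, and medians of the mean level of 873 and 892 FPKM. The genes with and without the run therefore lay close together in both level and change. Starts were taken from the annotation and not measured in these cells, so a gene without a run here may still have one.

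Library quality and cell identity are summarised for the series as a whole. Libraries of 1 age correlated at 0.977 to 0.986 and libraries of different ages at 0.965 to 0.985 across tested rows. Cd34 lay between 403 and 632 FPKM and Itga6, which encodes CD49f, between 72.7 and 117 FPKM in all 9 libraries. The 24-month values of Cd34 (494, 519 and 403 FPKM) lay below all 19-month values (632, 628 and 620 FPKM). They overlapped with those of 3 months (458, 626 and 561 FPKM). The bulge keratin gene Krt15 is listed at 0 in every library and Krt5 in the 3 libraries of 19 months, while Krt14 was at 3235 FPKM or more throughout; 36 rows of the table are listed at 0 in this way for a whole age while another age is expressed, none of them a ribosomal protein gene. Of 11 bulge markers in the fit of protein-coding genes described below, Nfatc1, Cxcl14 and Sox9 were called higher at 19 against 3 months (log2 changes 0.78, 1.07 and 0.66; adjusted p = 0.0264, 0.00903 and 0.0348) and Lgr5 lower at 24 against 3 months (-1.01, adjusted p = 0.00581), and none of these 4 was called in the fit of all rows. Their part in the ribosomal protein result was not tested. The library numbers in the labels form 1 consecutive block for the 3-month libraries and another for both older ages, so a difference between these blocks and the difference between young and older mice cannot be told apart. The table gives no read counts, so the depth behind each value is unknown.

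The ribosomal protein genes were among the most abundant transcripts of these cells. A row entered the tests when it reached at least 1 FPKM in at least 3 libraries, which 14275 rows and 81 of the 84 genes did. The median of their mean levels was 1035 FPKM, against 9.89 FPKM for all tested rows. They took 48 of the 100 highest places among protein-coding genes and between 15.35% and 21.09% of the protein-coding FPKM in a library. Both counts left out the genes encoded in mitochondrial DNA. Also left out were the rows described above that are listed without expression for a whole age, Krt5 among them. The highest levels were those of Rpl32 (6498 FPKM on average), Rps14 (5710), Rps19 (5367) and Rpl41 (3778), the last encoding the smallest ribosomal protein. The lowest tested levels were those of Rpl7l1 (79.4), Rpl22l1 (168), Rpl36al (205) and Rpl27a (257), with Rpl29 (259) next. The first 3 are paralog-type genes and the others regular large subunit genes. The mRNA level thus ranged 81.8-fold from Rpl32 to the paralog-type gene Rpl7l1. The regular genes, of whose proteins most are present in equal numbers in a ribosome, ranged from 6498 to 257 FPKM. Protein was not measured.

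How uniquely these genes can be read differs widely. Ribosomal protein genes have many processed pseudogenes, and the sources used here do not say how fragments with several possible places were assigned. On the longest coding transcript of each gene, a median of 38.8% of all 50-base words occurred in no other annotated gene, 49 of the 81 genes had under 50% such words, and 4 had over 90%. Across the 81 genes the percentage of unique words and the log2 level had a correlation of 0.125, given as a description. The table also holds 171 rows named as pseudogenes of 53 of these genes. Their summed level was 1.48% to 2.47% of the sum of parents and pseudogenes per library, and it exceeded 10% for 6 parents, led by Rpl10a (20.3%) and Rpl19 (16.8%). Adding these rows to their parents left the median log2 changes at 0.24, 0.39 and 0.16 in the 3 comparisons between ages, where they were 0.23, 0.39 and 0.17 without them. Only rows carrying the parent symbol with -ps were matched, so any copies under other symbols entered neither the sums nor these medians. Rpl7a, for example, has 8 such rows and shares 50-base words with 123 other annotated genes.

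As a group the ribosomal protein genes were higher at the older ages, without any of them passing the test in the fit of all rows. The 84 genes together held 105909, 95613 and 80610 FPKM in replicates 1, 2 and 3 of 3 months, 106042, 109211 and 111098 FPKM in replicates 1, 2 and 3 of 19 months, and 127156, 100962 and 142076 FPKM in replicates 2, 3 and 4 of 24 months. As a share of protein-coding FPKM, counted as above, this was 16.6% ± 1.33 at 3 months, 17.5% ± 1.60 at 19 months and 19.6% ± 1.91 at 24 months (SD, n = 3 each). The ages overlapped: replicate 3 of 24 months lay between the 3-month libraries, and replicate 1 of 19 months differed from replicate 1 of 3 months by less than the spread within either age. The median gene stood at log2(FPKM + 1) of 9.91, 9.86 and 9.61 at 3 months, 9.90, 10.04 and 10.06 at 19 months and 10.22, 9.87 and 10.37 at 24 months. The median of all tested rows moved between 3.30 and 3.46. Of the 81 tested genes, 73 had their lowest value in replicate 3 of 3 months and 71 their highest in replicate 4 of 24 months. In bulk RNA, fewer cells of a type and less RNA per cell cannot be told apart.

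**Figure D1:**
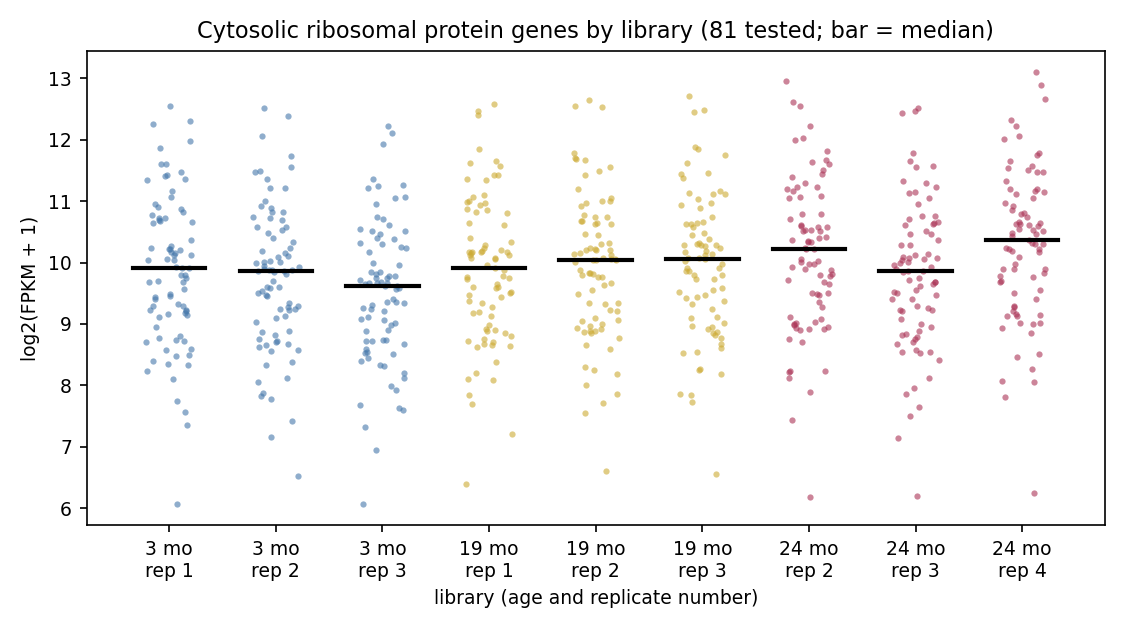
Each point is 1 of 81 tested ribosomal protein genes, plotted as log2(FPKM + 1) in each of the 9 libraries, with horizontal bars at the median and colours for age. The medians run from 9.61 in replicate 3 of 3 months to 10.37 in replicate 4 of 24 months, and replicate 3 of 24 months (9.87) sits among the 3-month libraries.

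Changes on the log2(FPKM + 1) scale were tested with limma in a single model of the 9 libraries, with Benjamini-Hochberg adjustment over all tested rows. At 19 against 3 months 79 of 81 genes had a change above 0, with a median of 0.23, where 50.4% of all tested rows were above 0 with a median of 0.00. At 24 against 3 months 78 genes were above 0, with a median of 0.39, against 50.1% and 0.00 for all rows. At 24 against 19 months 76 genes were above 0, with a median of 0.17, against 48.4% and -0.01 for all rows. The first 2 comparisons share the 3-month libraries, so their agreement is not independent. No gene passed an adjusted p of 0.05 in limma in any comparison, where 0.28%, 0.203% and 0.049% of all tested rows did, nor in the F test over the 3 ages, where 0.224% did. At an unadjusted p under 0.05 there were 4 genes at 19 against 3 months (4.94%, against 14.0% of all rows), 32 at 24 against 3 months (39.5%, against 18.6%), 0 at 24 against 19 months (against 10.7%) and 10 in the F test (12.3%, against 17.2%). The older libraries all lay above the 3-month libraries for 31 genes at 19 months (38.3%, against 10.5% of all rows) and for 30 genes at 24 months (37.0%, against 10.3%), and all below for none. These shares varied with coding length, also among other protein-coding genes, and the counts by length are given below. Between 24 and 19 months 2 genes, Rps23 among them, were higher without overlap (2.47% against 7.85%) and 1 was lower (Rpl7l1, 1.23% against 9.44%).

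The size of these changes rested on single libraries at either end. Without replicate 3 of 3 months the median change at 19 against 3 months was 0.13. Without replicate 4 of 24 months the median change was 0.27 at 24 against 3 months and 0.04 at 24 against 19 months, where 54 of 81 genes stayed above 0. Without replicate 3 of 24 months it was 0.29 at 24 against 19 months.

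**Figure D2:**
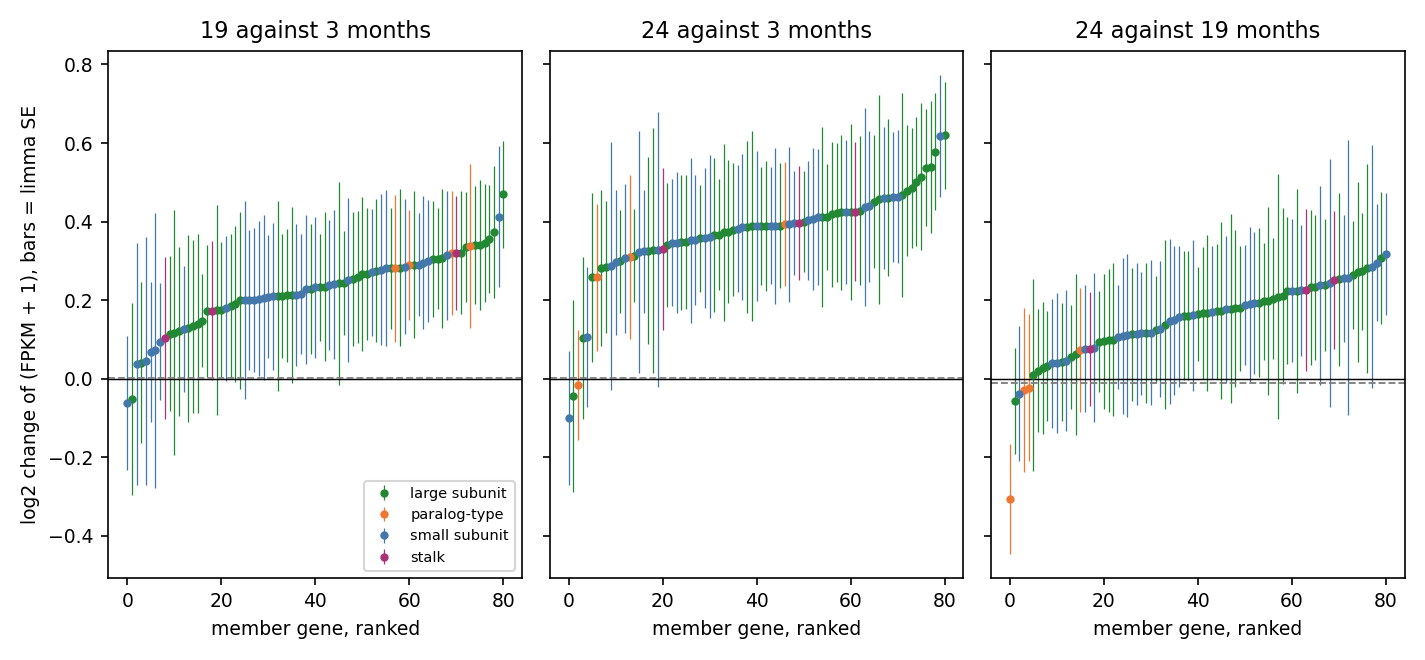
Log2 changes of the 81 tested genes with limma standard errors, ranked from lowest to highest in each of the 3 comparisons and coloured by subunit. The dashed line is the median of all tested rows and lies near 0, while the medians of these genes are 0.23, 0.39 and 0.17; the lowest point at 24 against 19 months is Rpl7l1.

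Restricting the fit to protein-coding genes, and leaving out the rows listed at 0 for a whole age, gave 3 calls at 24 against 3 months: Rpl12, Rpl21 and Rps23. That is 3 of 81 (3.7%), where 3.84% of the 11509 rows of that fit were called and 1.5% were called higher; all 3 genes were higher. In the F test of this fit Rpl12 alone was called (adjusted p = 0.0445; 1.23% of genes against 4.54% of rows), and at 19 against 3 months and 24 against 19 months no gene was, where 1.56% and 0.93% of rows were. At an unadjusted p under 0.05 the same fit had 11, 49 and 1 genes in the 3 comparisons (13.6%, 60.5% and 1.23%, against 15.7%, 21.6% and 12.8% of rows) and 22 in the F test (27.2%, against 21.4%). The calls at 24 against 3 months varied from 0 to 12 genes as single libraries were left out. They numbered 12 without replicate 3 of 24 months, and none was called without replicate 2 or 3 of 3 months or without replicate 2 or 4 of 24 months.

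Rpl12 encodes a large subunit protein at the base of the stalk, where translation factors bind. Its level was 324, 321 and 293 FPKM at 3 months, 407, 401 and 391 FPKM at 19 months and 486, 406 and 563 FPKM at 24 months. The 3-month libraries lay below all others, and replicate 3 of 24 months lay within the range of 19 months. The log2 change at 24 against 3 months was 0.62 (SE 0.14), with an adjusted p of 0.0886 in the fit of all rows and 0.0236 in the protein-coding fit, and it was 0.35 at 19 against 3 months (adjusted p = 0.315).

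Rps23 encodes the small subunit protein beside the decoding centre. It measured 1627, 1818 and 1491 FPKM at 3 months, 2048, 2055 and 1957 FPKM at 19 months and 2505, 2245 and 2838 FPKM at 24 months. Its 3 ages did not overlap, with replicate 3 of 24 months the lowest of its age. The log2 changes were 0.30 at 19 against 3 months (adjusted p = 0.428), 0.62 at 24 against 3 months (SE 0.16, adjusted p = 0.115, and 0.0408 in the protein-coding fit) and 0.32 at 24 against 19 months (adjusted p = 0.514).

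Rpl21, a large subunit gene that shares 50-base words with 82 other annotated genes, was at 322, 332 and 277 FPKM at 3 months, 397, 383 and 367 FPKM at 19 months and 503, 379 and 517 FPKM at 24 months. Replicate 3 of 24 months again fell into the range of 19 months, while the 3-month libraries lay below all others. Its change at 24 against 3 months was 0.58 (SE 0.15), with an adjusted p of 0.117 in the fit of all rows and 0.0393 in the protein-coding fit.

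Rpl19 followed in that comparison with 0.54 (adjusted p = 0.167). Its level was 626, 773 and 610 FPKM at 3 months, 863 ± 25.1 FPKM at 19 months and 979 ± 169 FPKM at 24 months (SD, n = 3 each), and its change at 19 against 3 months was 0.37 (adjusted p = 0.373).

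The largest change at 19 against 3 months was that of Rpl29, whose loss in mice is known to reduce growth. It measured 213, 219 and 193 FPKM at 3 months, 273, 290 and 303 FPKM at 19 months and 299, 231 and 308 FPKM at 24 months. Both older ages lay above the 3-month libraries and overlapped with each other. The change was 0.47 at 19 against 3 months (SE 0.14, adjusted p = 0.221) and -0.06 at 24 against 19 months (adjusted p = 0.91). Rps19, the gene most often mutated in Diamond-Blackfan anaemia, had the second largest change at 19 against 3 months, 0.41 (adjusted p = 0.36). Its libraries measured 4882, 4265 and 3915 FPKM at 3 months, 5689, 5931 and 5702 FPKM at 19 months and 5965, 5508 and 6447 FPKM at 24 months, the young libraries lying below all others.

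At 24 against 19 months the 4 largest changes included, beside Rps23, those of Rps2 (0.30, adjusted p = 0.528) and Rps21 (0.29, adjusted p = 0.775). Rps2, a small subunit protein near the mRNA entry channel, stood at 424, 433 and 420 FPKM at 3 months, 416, 500 and 451 FPKM at 19 months and 518, 493 and 680 FPKM at 24 months. Its 24-month libraries lay above all 3-month libraries and overlapped with those of 19 months. Rps21 measured 1685, 970 and 856 FPKM at 3 months, 1150, 1061 and 1240 FPKM at 19 months and 1570, 975 and 1791 FPKM at 24 months. Its 24-month libraries lay on both sides of those of 19 months.

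A few genes did not share the higher level of the older mice. Rps10, a small subunit gene also mutated in Diamond-Blackfan anaemia, measured 580, 473 and 419 FPKM at 3 months, 472, 465 and 461 FPKM at 19 months and 496, 369 and 511 FPKM at 24 months. The ages overlapped, and its changes were -0.06 at 19 against 3 months and -0.10 at 24 against 3 months (adjusted p = 0.9 and 0.795). Measured against the median ribosomal protein gene of its own library, Rps10 stood at log2 differences of -0.73, -0.97 and -0.90 at 3 months, -1.02, -1.18 and -1.21 at 19 months and -1.26, -1.34 and -1.36 at 24 months. On that relative scale the 3 ages did not overlap. Rps10 was picked for the lowest change, so this order is a description with no test.

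Rpl27a, the gene of the sooty foot ataxia mouse, was at 360, 234 and 203 FPKM at 3 months, 294, 230 and 228 FPKM at 19 months and 299, 200 and 263 FPKM at 24 months. One library of 3 months was the highest of all, and the changes were -0.05 and -0.04 at 19 and 24 against 3 months (adjusted p = 0.948 and 0.947). Rpl13 was close to level across ages, with changes of 0.04 and 0.10 in the same comparisons (adjusted p = 0.952 and 0.825), and so was Rps21 at 19 against 3 months with 0.04 (adjusted p = 0.971). The signs of these small changes turned when single libraries were left out.

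**Figure D3:**
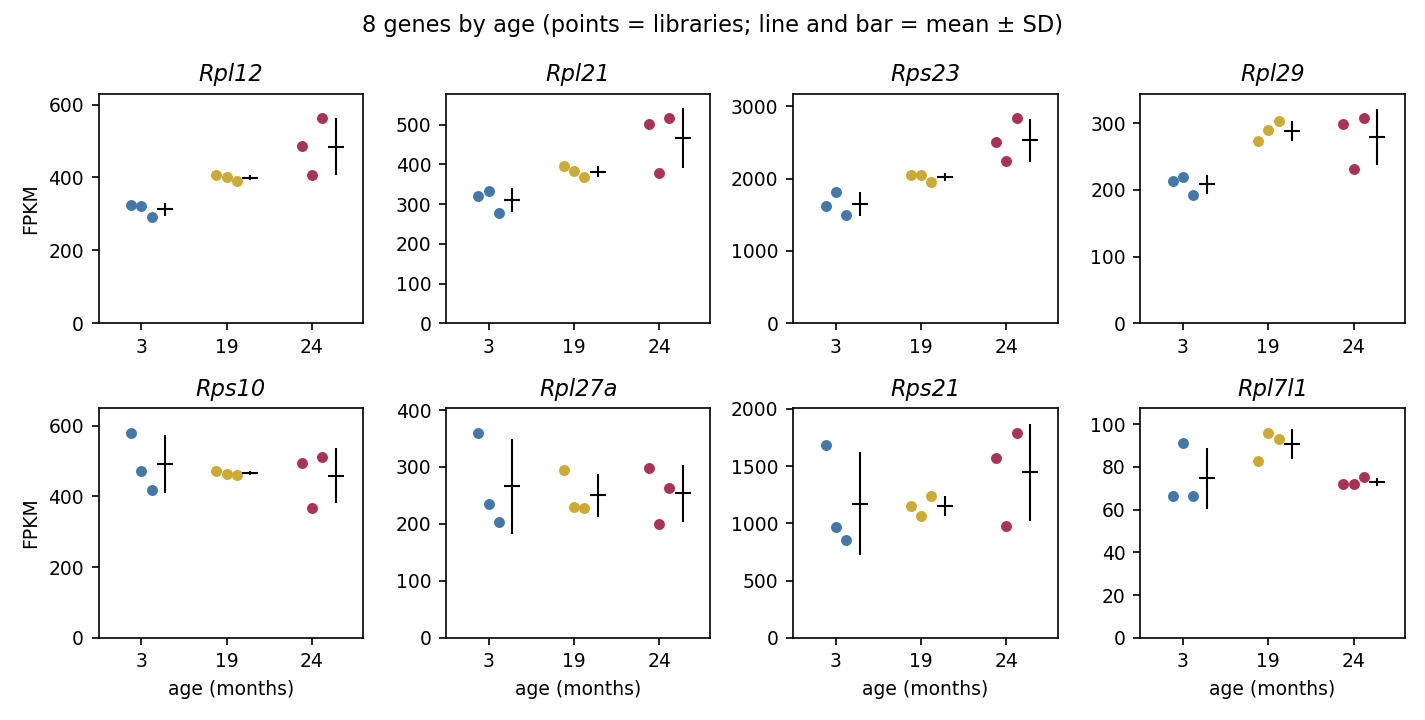
FPKM of 8 genes in each library at 3, 19 and 24 months (points), with the mean and SD of 3 libraries beside them. Rpl12, Rpl21, Rps23 and Rpl29 have all 3-month libraries below the older ones, Rps10, Rpl27a and Rps21 overlap between ages, and Rpl7l1 is lower at 24 than at 19 months without overlap.

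By subunit the changes were alike. The 31 small subunit genes had median changes of 0.21, 0.39 and 0.16 at 19 against 3, 24 against 3 and 24 against 19 months, and 30 of 31 were above 0 in each. The 43 large subunit genes had medians of 0.23, 0.39 and 0.17, with 42 of 43 above 0 in each. The stalk genes Rplp0, Rplp1 and Rplp2, whose products recruit elongation factors, were all above 0, with medians of 0.17, 0.40 and 0.23. In order of age Rplp0 had means of 1315 ± 148, 1636 ± 72.1 and 1727 ± 142 FPKM, Rplp1 of 1620 ± 333, 1718 ± 73.5 and 2033 ± 376 FPKM, and Rplp2 of 1921 ± 216, 2158 ± 56.8 and 2593 ± 427 FPKM (SD, n = 3 each).

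None of the 17 genes chosen by role was called in either fit. Rps6, the substrate of S6 kinase downstream of mTOR, was at 638, 779 and 593 FPKM at 3 months, 729, 864 and 847 FPKM at 19 months and 941, 735 and 1003 FPKM at 24 months, so that its ages overlapped (F test adjusted p = 0.378). Rpl5 and Rpl11, which form a complex with ribosomal RNA that binds Mdm2, had means, in order of age, of 268 ± 13.0, 297 ± 22.2 and 334 ± 34.6 FPKM and of 588 ± 64.8, 742 ± 32.6 and 856 ± 117 FPKM, each over 3 libraries with its SD. Both had all 24-month libraries above those of 3 months (F test adjusted p = 0.343 and 0.215). Rps7, a further binder of Mdm2, was at 890 ± 116, 1028 ± 60.9 and 1188 ± 230 FPKM and overlapped between ages. Rps14 and Rps3 had F test adjusted p values of 0.478 and 0.448. Rpsa, first described as a laminin receptor precursor, measured 335, 375 and 322 FPKM at 3 months, 396, 459 and 407 FPKM at 19 months and 416, 429 and 517 FPKM at 24 months. Its 3-month libraries lay below all others (F test adjusted p = 0.275). Rps27a, made as a fusion with ubiquitin, had means of 701 ± 55.9, 831 ± 109 and 931 ± 209 FPKM in order of age (F test adjusted p = 0.46). Rpl13a, which also silences inflammatory mRNAs, was at 2637, 2860 and 2379 FPKM at 3 months, 3216, 3260 and 3132 FPKM at 19 months and 4070, 3014 and 4264 FPKM at 24 months, with all older libraries above the young ones (F test adjusted p = 0.321). Of the genes with skin or skeletal mutants, Rps20 was at 1010 ± 171, 1213 ± 27.0 and 1376 ± 271 FPKM, Rpl24 at 691 ± 52.0, 876 ± 78.5 and 988 ± 175 FPKM and Rpl38 at 1121 ± 421, 1166 ± 101 and 1389 ± 407 FPKM (SD, n = 3 each). The adjusted p of the F test lay between 0.215 for Rpl11 and 0.989 for Rpl27a over the 17 genes chosen by role.

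The paralog-type genes fell into 2 groups by level. Rpl3l, known from muscle, and Rpl10l and Rpl39l, known from testis, stayed at or below 1.06 FPKM in every library and were not tested. Rpl3l is listed at 0 in 7 libraries, Rpl10l in 6 and Rpl39l in 3. The other 4 are broadly expressed and were compared with their parents. Rpl22l1 was at 25.1% ± 2.05, 28.2% ± 2.58 and 24.5% ± 0.867 of the level of Rpl22 in order of age (SD, n = 3 each). Rps27l, known as a p53 target, was at 13.2% ± 1.64, 13.9% ± 0.873 and 11.6% ± 0.633 of Rps27, and Rpl36al at 23.8% ± 2.51, 25.9% ± 1.05 and 24.1% ± 1.46 of Rpl36a. The ages overlapped for Rpl22l1 and Rpl36al, whereas every 24-month value of Rps27l lay below every 19-month value. The 3-month values of Rps27l overlapped with both older ages. Only 1.35% of the 50-base words of Rps27 occurred in no other annotated gene, so the level of this parent is uncertain. Rpl7l1 was at 5.98%, 6.37% and 5.52% of Rpl7 at 3 months, 6.41%, 5.86% and 5.92% at 19 months and 4.93%, 5.13% and 3.76% at 24 months, the 24-month libraries lying below all others. These ratios were not tested. In its own level Rpl7l1 measured 66.2, 91.3 and 66.4 FPKM at 3 months, 82.7, 96.0 and 93.1 FPKM at 19 months and 71.8, 72.1 and 75.1 FPKM at 24 months. Its change of -0.31 at 24 against 19 months was the lowest of all these genes (SE 0.14, adjusted p = 0.484), and at 24 against 3 months it was -0.02 (adjusted p = 0.97). Rpl22l1 had a change of -0.03 at 24 against 19 months (adjusted p = 0.976).

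The genes varied together from library to library. The median correlation of a gene with the median of the others over the 9 libraries was 0.908, 41 of 81 genes were above 0.9, and the lowest value was 0.19 for Rpl7l1, followed by 0.356 for Rpl27a and 0.44 for Rps10. These correlations share libraries and are given as a description. A principal component analysis of the 81 genes put 79.8% of the variance on the first component, which ordered the libraries from replicate 3 of 3 months (-3.63) to replicate 4 of 24 months (3.65). The second component held 12.2%, set replicate 1 of 3 months (-1.91) apart from all others (-0.30 to 0.93), and had loadings that correlated at 0.685 with the log2 of the coding length. Rpl27a and Rps10, together with short genes, were high in that library.

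**Figure D4:**
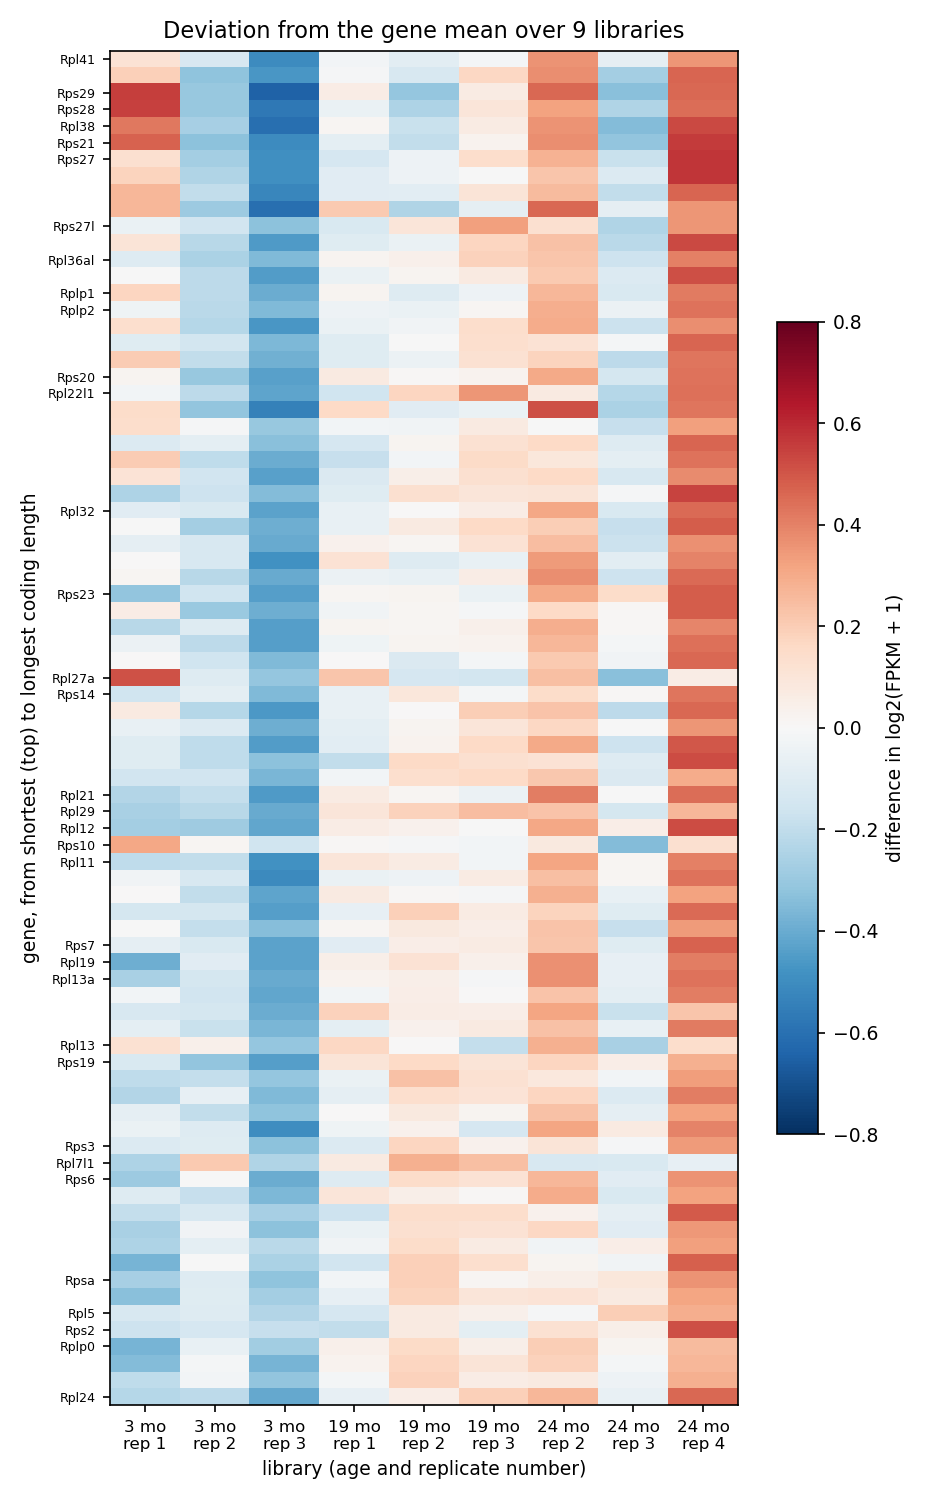
Each row is 1 of 81 genes, from the shortest coding length at the top to the longest at the bottom, and each column 1 library, with a selection of genes described in the text labelled; colour gives the difference from the gene's own mean over 9 libraries on the log2(FPKM + 1) scale. Replicate 3 of 3 months is blue and replicate 4 of 24 months red for nearly all genes, and replicate 1 of 3 months changes from red for short genes to blue for long ones.

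Coding length, the longest coding sequence annotated in GENCODE M21, separated the genes within libraries. In replicate 1 of 3 months the 9 genes of at most 300 coding bases, among them Rps29, Rps28, Rpl38 and Rpl41, had a median deviation of 0.27 from their own means, and the 26 genes over 600 bases one of -0.20. In replicate 3 of 3 months the medians were -0.51 and -0.33, in replicate 4 of 24 months 0.47 and 0.34, and in replicate 3 of 24 months -0.24 and -0.05. The correlation of the deviation with the coding length on a log2 scale ran from -0.675 in replicate 1 of 3 months to 0.68 in replicate 2 of 19 months. Rps29 illustrates the spread of short genes, with 3099, 1714 and 1347 FPKM at 3 months, 2202, 1708 and 2209 FPKM at 19 months and 2902, 1678 and 2912 FPKM at 24 months. Its highest and lowest values in the series were both at 3 months. Rpl24 has a coding length of 3150 bases by 1 annotated transcript and stands apart at the long end.

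Other protein-coding genes of the same lengths were shifted with age as well, though differently. The 265 tested genes of at most 300 coding bases had median changes of 0.18, 0.18 and -0.03 in the 3 comparisons, where the 9 ribosomal protein genes of that length had 0.13, 0.33 and 0.24. Among genes over 600 bases the medians were -0.02, -0.03 and -0.02 for 9871 others and 0.27, 0.38 and 0.10 for 26 ribosomal protein genes. The ribosomal protein medians at 24 against 3 months lay between 0.33 and 0.41 in all 4 length classes. Those of other genes lay between -0.03 and 0.18. At 19 against 3 months, genes of 301 to 450 bases had medians of 0.21 for 29 ribosomal protein genes and 0.19 for 580 others. All 19-month libraries lay above those of 3 months for 0 of 9 ribosomal protein genes and 68 of 265 others up to 300 bases. The counts were 7 of 29 and 138 of 580 at 301 to 450 bases, 10 of 17 and 150 of 704 at 451 to 600, and 14 of 26 and 876 of 9871 above. For 24 against 3 months the counts in the same order were 0 of 9 and 45 of 265, and 5 of 29 and 114 of 580. The 2 longer classes had 10 of 17 and 116 of 704, and 15 of 26 and 907 of 9871. The part of length or RNA quality in the differences between ages was not tested.

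**Figure D5:**
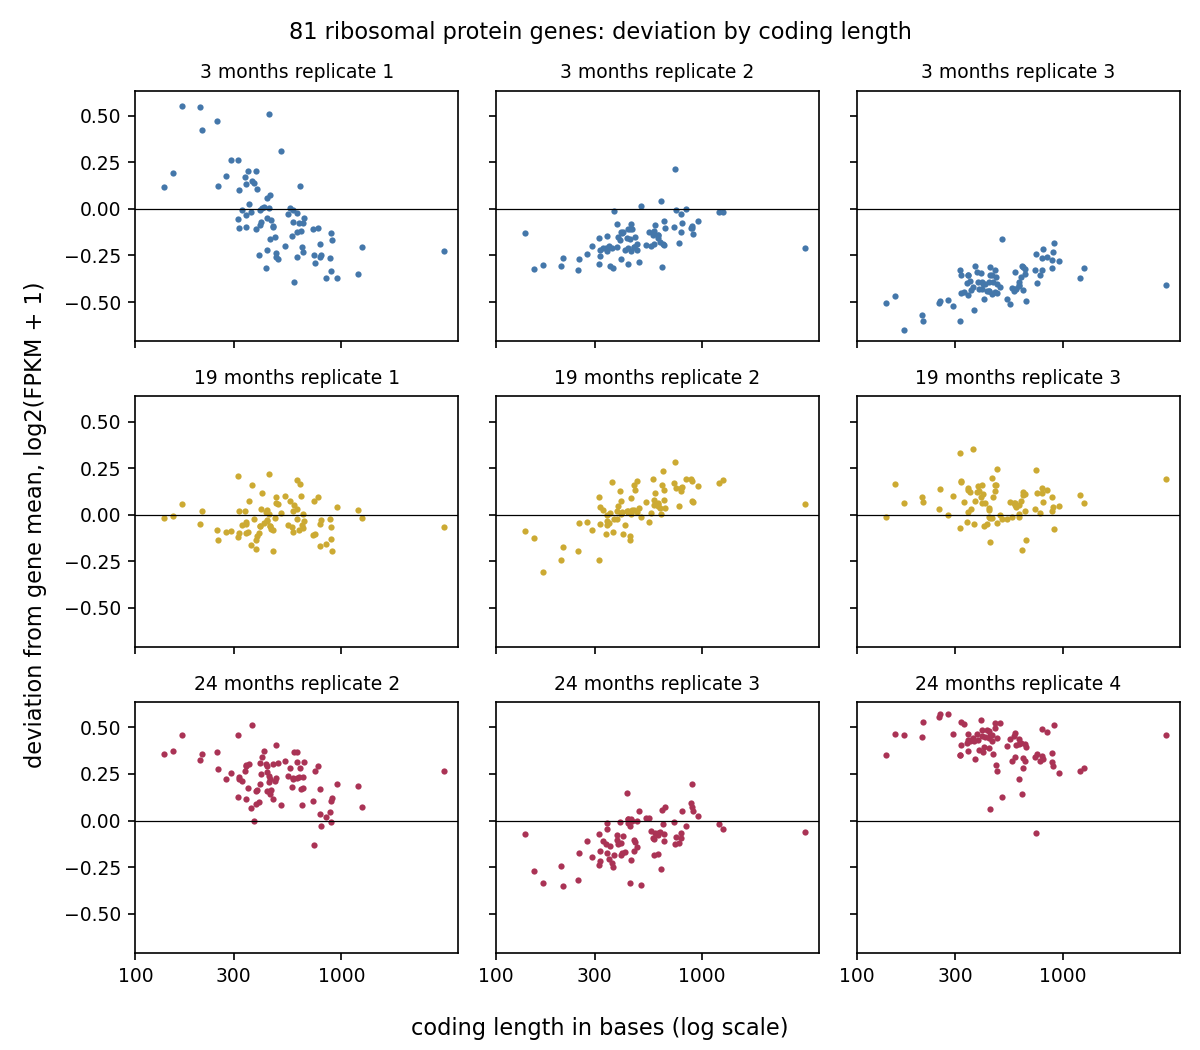
Deviation of each of 81 genes from its own mean, in log2(FPKM + 1), against its coding length on a log axis, with 1 panel per library. Short genes lie high in replicate 1 of 3 months and low in replicate 2 of 19 months, and the whole set is shifted down in replicate 3 of 3 months and up in replicate 4 of 24 months.

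Markers of differentiated keratinocytes, another cell type of the skin, were summed for each library. The 13 rows of that list, of which 9 were tested and 3 Flg rows are listed at 0 throughout, summed to 2974, 2021 and 2145 FPKM at 3 months, 2429, 3277 and 2562 FPKM at 19 months and 3972, 2275 and 4013 FPKM at 24 months. The highest sums were in replicates 4 and 2 of 24 months, which also had the highest ribosomal protein levels. The next sum, 3277 FPKM, was in replicate 2 of 19 months. There the ribosomal protein genes held 109211 FPKM, or 15.65% of protein-coding FPKM. The sums do not weight the markers equally. At 3 months Sbsn, Krt10, Klk7 and Krt1 had means of 268, 72.1, 33.1 and 28.5 FPKM, so most of the sum came from other rows of the list. Within the list 8 of 9 tested rows were above 0 at 24 against 3 months with a median of 0.38, and none was called. Krt1 was 28.5 ± 3.97 FPKM at 3 months and 22.3 ± 5.91 FPKM at 24 months (SD, n = 3 each). At 24 against 3 months 9 of 10 tested sebaceous gland markers were below 0 (median -1.16). The protein-coding fit called 7 of them lower and 1 of the 10, Mgst1, higher. Of all 11509 rows of that fit, 269 were called lower and 173 higher. The summed level of the list ranged from 330 to 428 FPKM at 3 months and from 425 to 516 FPKM at 24 months. Mgst1 alone was at 211 ± 26.0 FPKM at 3 months and 366 ± 57.15 FPKM at 24 months (SD, n = 3 each). The highest mean among the 7 called lower was 41.9 FPKM, that of Scd1 at 3 months. In the same comparison both tested endothelial markers were called lower in the protein-coding fit, 5 of 5 melanocyte markers were below 0 with 1 called, and 4 of 4 red blood cell markers (median 0.73) and 5 of 8 immune cell markers (median 0.31) were above 0 with none called. The part of any of these cells in the ribosomal protein result was not tested.

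Of the genes that work with the ribosomal proteins, those nearest to the ribosome itself also had changes above 0, and none was called in either fit. Fau, which encodes a ribosomal protein fused to a ubiquitin-like protein, had log2 changes of 0.33 at 19 and 0.55 at 24 against 3 months (adjusted p = 0.423 and 0.162). Gnb2l1, which encodes the small subunit scaffold Rack1, had 0.15 and 0.31 (adjusted p = 0.702 and 0.322). Fau measured 792, 761 and 640 FPKM at 3 months, 941, 907 and 899 FPKM at 19 months and 1207, 856 and 1182 FPKM at 24 months, with every older library above the young ones. Among 19 elongation factors and other genes with TOP mRNAs the medians were 0.19 at 19 against 3 months, 0.26 at 24 against 3 months and 0.05 at 24 against 19 months, and 16, 18 and 13 of 19 were above 0. Tpt1, whose mRNA is a classical TOP transcript, had 0.45 at 24 against 3 months (adjusted p = 0.212). The 76 mitochondrial ribosomal protein genes had medians of 0.17, 0.18 and -0.02, with 58, 57 and 35 above 0; none was called in the fit of all rows, and Mrps24 was called lower at 24 against 3 months in the protein-coding fit (-0.84, adjusted p = 0.0157). Their median at 24 against 19 months was below 0, where that of the cytosolic genes was 0.17, a difference that was not tested. The 59 tested initiation factor genes had medians of 0.06, 0.07 and -0.01, with 0 called.

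The 34 ribosome assembly genes had medians of 0.04, 0.05 and 0.00, with 20, 19 and 17 above 0, and none was called in the fit of all rows. In the protein-coding fit Bop1, which processes large subunit ribosomal RNA, was lower at 24 months: 12.6 ± 3.41 FPKM against 21.8 ± 2.75 at 3 months and 23.3 ± 2.13 at 19 months (log2 changes -0.77 and -0.87, adjusted p = 0.0305 and 0.0374; in the fit of all rows 0.117 and 0.236). The 13 genes of RNA polymerase I and its factors had medians of 0.04, 0.03 and 0.07. Tcof1, the treacle gene that promotes ribosomal RNA transcription, was lower at 24 months with 7.02 ± 1.15 FPKM against 11.2 ± 0.346 at 3 months (-0.62, adjusted p = 0.0838, and 0.0431 in the protein-coding fit), and no other gene of the list was called in that fit. The 5 chaperones of ribosomal proteins had medians of 0.17, 0.00 and -0.24, and the 21 regulators of mTOR signalling and TOP mRNAs had medians of -0.17, -0.11 and 0.03, with 7, 8 and 12 above 0 and none called in either fit. Eif4ebp2, which encodes a repressor of cap-dependent translation, had -0.69 at 19 against 3 months (adjusted p = 0.223). Of 5 tested genes of the nucleolar stress response, Trp53 was at 124 ± 20.6, 162 ± 2.77 and 142 ± 18.8 FPKM in order of age (SD, n = 3 each), Cdkn1a had a change of 0.26 at 24 against 3 months, and none was called.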

How the data were processed

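Total RNA of sorted hair follicle stem cells was sequenced (9 libraries, 3 per age). Per the submitters' processing notes, TopHat and Cuffdiff were used with NCBIM37; the deposited table holds the authors' FPKM for each library, and the sources used here do not say how fragments with several places were assigned. Values were taken as log2(FPKM + 1) for rows of at least 1 FPKM in at least 3 libraries. limma 3.58.1 in R 4.3.3 (trended empirical Bayes, all 9 libraries in 1 model, no covariate, two-sided, Benjamini-Hochberg over all tested rows, threshold 0.05) compared the ages and was tested on simulated data. Fold changes on this scale understate those of low genes. Gene types and coding lengths came from GENCODE M21, to which 32916 row identifiers matched. Groups came from sample titles. Alternatives were the pseudocount, filter, scaling, prior variance, replicate block, gene types, pseudogene rows and leaving out each library; leaving out libraries within the protein-coding fit was added after seeing the data. Named genes are the 4 highest and 4 lowest changes per comparison, called genes, the 4 highest and lowest levels, 17 genes by role and the paralog-type genes; genes of other lists are the extreme changes of each. Rps29 was picked for its length after its values were seen. Some genes under these rules are not reported here. The genes and lists were chosen with earlier results of these data known.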

Additional observations from a re-analysis of the deposited data

How the results depend on the processing

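Under 18 alternatives the median change of the ribosomal protein genes stayed above 0 in all 3 comparisons. It lay between 0.22 and 0.28 at 19 against 3 months, 0.29 and 0.39 at 24 against 3 months and 0.07 and 0.17 at 24 against 19 months over the 9 settings that kept every library, and between 0.13 and 0.30, 0.27 and 0.52, and 0.04 and 0.29 with single libraries left out. The low ends of 0.29 and 0.07 came from the replicate block, which gives replicate 4 of 24 months no weight. No such gene was called outside the protein-coding fit, where the calls numbered 3 at 24 against 3 months and 1 over all ages (F test). When single libraries were left out of that fit they ran from 0 to 12 (1 without replicate 1 of 3 months or replicate 2 or 3 of 19 months, 2 without replicate 1 of 19 months) and from 0 to 4. Rpl12, Rpl21 and Rps23 had adjusted p from 0.012 to 0.119, 0.0146 to 0.163 and 0.0277 to 0.166 in those fits.

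The replicate numbers shared by the ages showed no pairing of the libraries over all tested rows. Deviations of same-numbered libraries correlated at -0.067 to 0.105 there, and those of different numbers at -0.084 to 0.121. Over the ribosomal protein genes the ranges were -0.729 to 0.706 and -0.831 to 0.812. With the replicate number as a block the median changes were 0.23, 0.29 and 0.07, no ribosomal protein gene was called, Rpl27a turned to 0.10 at 24 against 3 months, and 9, 13 and 16 rows of the table were called in the 3 comparisons instead of 40, 29 and 7. Replicate number 4 occurs only in replicate 4 of 24 months, so the block gives that library no weight in the changes between ages. Leaving that library out gave medians of 0.27 at 24 against 3 months and 0.04 at 24 against 19 months.

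The number of called rows moved with other settings too. At 19 against 3 months it was 22 without a filter, 72 with a robust prior variance and 180 among protein-coding genes, and 5 to 37 with single libraries left out. At 24 against 3 months it was 8 without a filter, 47 with a filter at 5 FPKM, 52 with median-ratio scaling, 224 with a robust prior variance and 442 among protein-coding genes, and 4 to 41 with single libraries left out. At 24 against 19 months it was 27 with a robust prior variance and 107 among protein-coding genes, and 7 to 20 with single libraries left out. The cause was not tested.

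Small changes turned sign when single libraries were left out. The ranges were -0.17 to 0.065 for Rps10, -0.22 to 0.19 for Rpl27a, -0.15 to 0.33 for Rps21 and -0.089 to 0.13 for Rpl13 at 19 against 3 months. At 24 against 3 months they were -0.21 to 0.049 for Rps10, -0.21 to 0.20 for Rpl27a, -0.092 to 0.14 for Rpl7l1 and -0.0265 to 0.26 for Rpl13. At 24 against 19 months they were -0.13 to 0.073 for Rpl29, -0.12 to 0.11 for Rps10 and -0.20 to 0.13 for Rpl22l1. FPKM without counts gives no depth, so counting error could not be set beside any of these values.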
